A study of Homo sapiens with 6 samples.

Results

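The RNA of 36 autophagy genes was followed in cells treated with the tyrosine kinase inhibitor DCC-2036 (rebastinib). The 36 genes, of 19223 gene symbols in the deposited table, encode the machinery that builds autophagosomes and the receptors that bring cargo to them. They were found by their symbols, and where a symbol had several transcripts, the most abundant transcript (by its mean over all 6 libraries) was used. The cells were labelled as LoVo, a human colorectal adenocarcinoma line that is long established. RNA was sequenced from 3 libraries of vehicle-treated cells (Control, 48 h) and 3 libraries of cells that had received DCC-2036 at 2.5 μM (48 h), to ask what the inhibitor changes in the transcriptome. The time is that of the sample labels, and a figure legend of the study gives a shorter one. The table holds 1 normalized signal value for each transcript and library, so read depth is unknown. The columns of the Control libraries summed to 38997229, 39956227 and 40587145, and those of the DCC-2036 libraries to 43279603, 45957597 and 48023306. The labels do not say that the 3 libraries of a group came from separate cultures, so the p-values measure only the spread between these libraries, which may be technical. In bulk RNA, fewer cells with a transcript and less of it per cell cannot be told apart.

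The labelled cell type was checked against marker genes. Of 12 markers of colorectal epithelium, 7 reached a value of 10 in 3 or more libraries, with the keratin KRT8 the most abundant. EPCAM, CDH1, KRT8, KRT18, KRT19, KRT20 and the intestinal transcription factor CDX2 were detected. The intestinal transcription factor CDX1 and the stem cell receptor LGR5 were listed at 0 in all 6 libraries, and VIL1, CDH17 and CEACAM5 did not exceed 5.12 in any library. CEACAM5 encodes carcinoembryonic antigen, which LoVo is known to produce, and it was listed at 0 in 5 of 6 libraries. The absent markers thus go against the line named in the labels, and the cells are called here the cells labelled LoVo. The summed value of the 12 epithelial markers was 104485, 108197 and 114999 in the Control libraries against 148342, 163485 and 188447 in the DCC-2036 libraries, and its part in the results that follow was not tested. Most of this difference is that of KRT8, whose mean went from 59932 to 108237. The 7 detected markers did not all move together: CDH1 and KRT8 were called higher, EPCAM and KRT18 were higher without overlap and without a call (log2 fold changes 0.29 and 0.37), KRT20 was called lower (log2 fold change -1.15, adjusted p = 0.00427), and KRT19 and CDX2 overlapped between the groups. Markers of leukocytes, fibroblasts and endothelium summed to at most 339, 553 and 40.2 in any library, with CD68, COL1A1 and VWF the most abundant. Among them, CD4 was called lower (limma, log2 fold change -0.82, adjusted p = 0.00616). COL1A1 and VWF were higher without overlap and without a call, and PDGFRB and CD3E were higher without overlap but too low to be tested. The other markers of these cell types overlapped between the groups. PTPRC, the defining leukocyte marker, was listed at 0 in all 6 libraries.

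Autophagy encloses cytoplasm in a double membrane, the autophagosome, and delivers it to the lysosome for breakdown. A kinase complex around ULK1 starts the process, a lipid kinase complex around PIK3C3 marks the site, and ATG9A and ATG2 proteins supply lipid. A ubiquitin-like reaction then attaches ATG8 proteins (the LC3 and GABARAP families) to the membrane, where receptors such as SQSTM1 bind them and hold the cargo. Cancer cells, those of the colon among them, are known to use autophagy to live through shortage of nutrients and through drug treatment.

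In the DCC-2036 libraries, genes of this machinery moved in both directions, and members of the same complex were found on either side. Genes that reached a value of 10 in 3 or more libraries entered the limma test on log2(value + 1), and a gene was called at an adjusted p-value under 0.01, taken over all 12725 genes tested. Of the 36 genes, 35 were tested, and 7 of them were called higher and 10 lower. Over all tested genes, 19.2% were called higher and 22.7% lower, so the shares of the autophagy genes, 20% and 28.6%, lay near the background. The groups by role described below hold from 4 to 6 tested genes each, where such shares would give about 1 call in either direction, so the counts of a group are a description and no result about that step. The values of the 3 DCC-2036 libraries lay above all Control values in 15 of the 35 genes and below them in 14, and overlapped in 6. Over all tested genes, 32.9% lay above and 38.1% below without overlap. The median log2 fold change was -0.03 over the 35 genes and -0.09 over all tested genes, and the median absolute log2 fold change was 0.67 and 0.60. Log2 fold changes of the 35 genes ran from -1.36 (NBR1) to 1.24 (ATG14). The genes called higher were ATG14, ATG16L1, MAP1LC3B, ATG3, ATG101, GABARAPL2 and ATG4A. Those called lower were NBR1, ULK2, ATG2A, ULK1, ATG10, ATG9A, GABARAPL1, ATG12, SQSTM1 and ATG4C. An exact permutation test (two-sided) gave p = 0.1 for each of these 17 genes, the smallest value that 3 libraries against 3 allow.

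**Figure D1:**
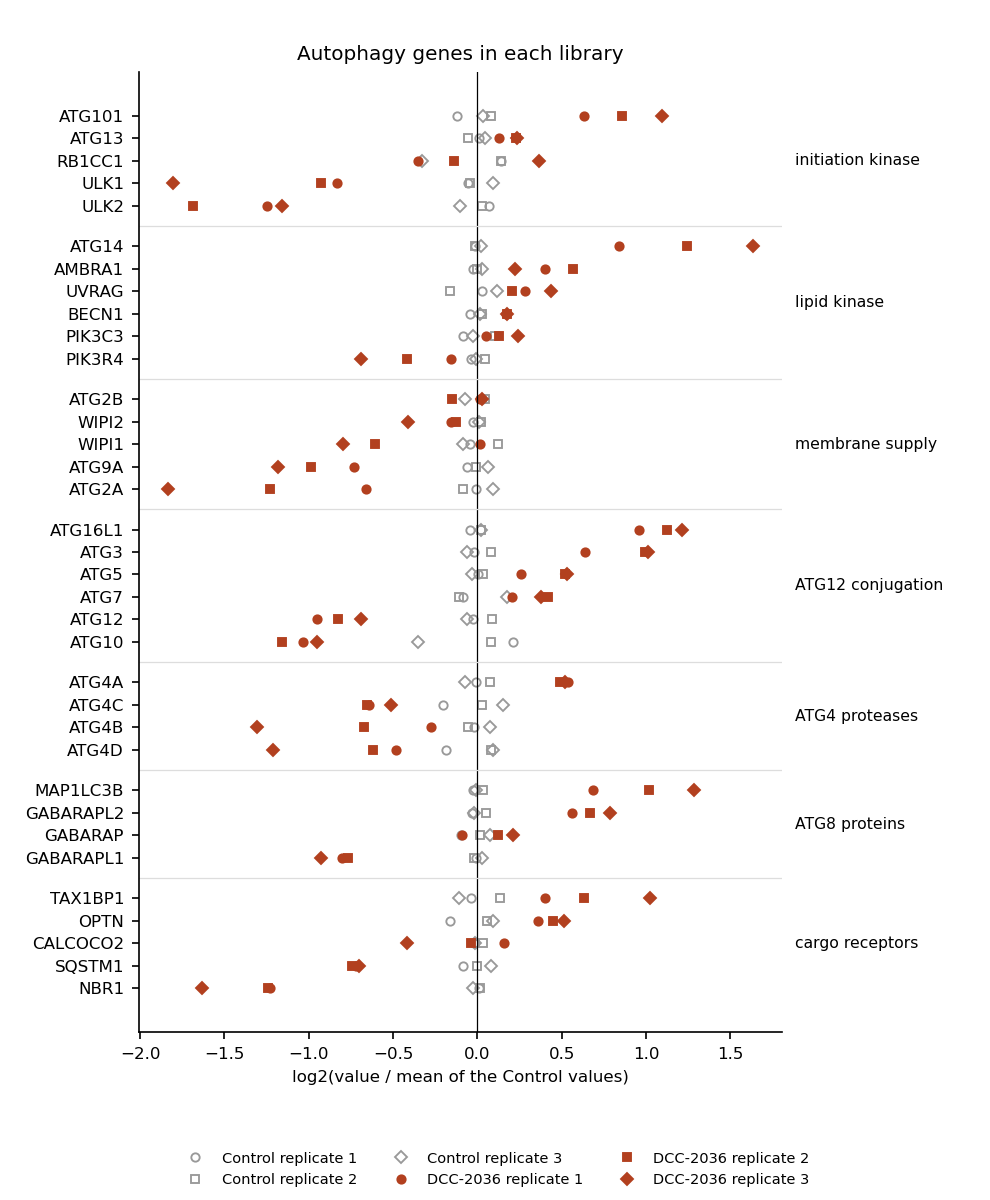
Value of each tested autophagy gene in each library, as log2 of its ratio to the mean of the 3 Control values (x axis), with genes on the y axis grouped by role. Open grey symbols are Control libraries and filled red symbols DCC-2036 libraries. In 29 of the 35 genes the red symbols do not overlap the grey ones. Over all tested genes, 32.9% lay above and 38.1% below without overlap.

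The libraries differed in spread. The median SD between libraries on the log2 scale, over all tested genes, was 0.101 in Control and 0.228 in DCC-2036. In 11 of the 17 called autophagy genes, DCC-2036 replicate 3 lay farthest from the Control mean (64.7%), against 64.5% of all called genes. Without DCC-2036 replicate 2, 1 autophagy gene was called higher and 6 lower. Without Control replicate 1, 2 or 3, the counts were 1 and 7, 2 and 6, and 1 and 6. Calls over all genes fell too, from 2442 higher and 2887 lower to 928 and 1708 without DCC-2036 replicate 2 and to 1054 and 1593, 1000 and 1514, and 992 and 1525 without Control replicate 1, 2 or 3. Without DCC-2036 replicate 1 the counts rose instead, to 9 and 13 autophagy genes and 2675 and 3507 of all genes. Without DCC-2036 replicate 3 they were 8 and 10 autophagy genes and 2487 and 3253 of all genes. All 17 genes kept the sign of their fold change in each of the 16 other settings tried, and ATG12, ATG16L1, GABARAPL1, NBR1, SQSTM1 and ULK2 were called in every one of them.

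Promoters were searched for 3 motifs of stress and lysosomal transcription factors. The RefSeq table of promoters (GRCh38.p14; 250 bases before to 50 bases after the start of a gene) held 32 of the 36 genes, with 40 promoters among them. MAP1LC3A, ATG4D, UVRAG and RB1CC1 were not among them. Motifs were searched on both strands and did not overlap one another in the promoters printed here. CACGTG, the E-box at the core of the element that TFEB and its relatives read, was found in the promoters of 2 genes, ATG14 and ATG3. It was in 7.26% of all 35116 promoters of the same length, in 9.25% of the promoters of tested genes and in 5% of the 40. TGACNNNGC, the core of the antioxidant response element, was found in ATG101, MAP1LC3B and CALCOCO2, which is 7.5% of the 40 promoters against 13.3% of all and 14.5% of those of tested genes. TGATGNAA, the core of the C/EBP-ATF element, was in 0 of the 40, in 3.62% of all and in 1.91% of those of tested genes. Of the genes with a match, ATG14, ATG3, ATG101 and MAP1LC3B were called (all higher), too few to speak of a direction. Among the promoters of all genes called higher and of all called lower, CACGTG was in 8.92% and 9.83%, TGACNNNGC in 15.6% and 13.7% and TGATGNAA, found in 0 of the autophagy genes searched, in 2.54% and 1.27%. A match is a description of letters and shows no binding. To show where the matches lie, the 250 bases before the start of these 4 called genes are given, 5′ to 3′ on the strand of the gene, with the match in capitals. CALCOCO2, which was not called, has its match 129 bases before the start, and its sequence is not printed. That of ATG14 lies at chr14:55411831-55412080 (minus strand) and holds its match 21 bases before the start. That of ATG3 lies at chr3:112561963-112562212 (minus strand), with a match 18 bases before the start and another, not shown, 5 bases after it. That of ATG101 lies at chr12:52069728-52069977 (plus strand), with the match 120 bases before the start. That of MAP1LC3B lies at chr16:87392086-87392335 (plus strand), with the match 46 bases before the start.
ATG14 promoter: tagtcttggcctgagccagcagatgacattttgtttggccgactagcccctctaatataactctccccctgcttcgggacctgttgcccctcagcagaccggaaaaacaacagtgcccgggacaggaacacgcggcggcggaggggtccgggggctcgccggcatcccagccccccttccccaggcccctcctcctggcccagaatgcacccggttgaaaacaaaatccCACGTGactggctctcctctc
ATG3 promoter: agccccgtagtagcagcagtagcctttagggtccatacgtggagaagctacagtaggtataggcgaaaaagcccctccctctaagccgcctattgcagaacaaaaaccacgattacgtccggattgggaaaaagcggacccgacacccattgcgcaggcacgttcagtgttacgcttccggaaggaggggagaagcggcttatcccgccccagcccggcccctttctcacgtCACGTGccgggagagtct
ATG101 promoter: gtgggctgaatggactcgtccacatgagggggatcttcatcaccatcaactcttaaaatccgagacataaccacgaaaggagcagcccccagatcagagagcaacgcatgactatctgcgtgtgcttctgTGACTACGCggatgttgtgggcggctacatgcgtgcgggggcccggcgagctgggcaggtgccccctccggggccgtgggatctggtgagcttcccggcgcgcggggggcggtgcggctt
MAP1LC3B promoter: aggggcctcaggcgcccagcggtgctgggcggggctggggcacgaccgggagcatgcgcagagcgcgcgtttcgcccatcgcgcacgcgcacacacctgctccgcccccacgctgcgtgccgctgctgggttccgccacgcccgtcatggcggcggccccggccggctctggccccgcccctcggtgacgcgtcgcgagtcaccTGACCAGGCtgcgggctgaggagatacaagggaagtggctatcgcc

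In the initiation kinase complex, both ULK kinases fell and the scaffold subunit ATG101 rose. Of all tested genes, 22.7% were called lower and 19.2% higher. ULK1, the kinase that starts autophagy when nutrients run short, measured 626.1, 632.1 and 693.1 in Control against 364.8, 341.7 and 186.5 in DCC-2036. All 3 DCC-2036 values were below the Control values, with replicate 3 the lowest, and the log2 fold change was -1.18 (SE 0.26, adjusted p = 0.0082). ULK2, its close relative, was at 51.7, 50.1 and 45.9 in Control and at 20.7, 15.3 and 22.1 in DCC-2036. The groups did not overlap, and ULK2 fell by 1.32 on the log2 scale (SE 0.16, adjusted p = 0.000944). ATG101, which binds and steadies ATG13, had Control values of 1015, 1166 and 1132 and DCC-2036 values of 1712, 2004 and 2355. Each DCC-2036 library was above each Control library, with a log2 fold change of 0.86 (SE 0.14, adjusted p = 0.00298). ATG13, the adaptor that joins the kinase to its partners, was at 1098, 1049 and 1127 in Control and at 1191, 1281 and 1282 in DCC-2036. Its groups did not overlap, but it was not called (log2 fold change 0.20, 95% interval -0.03 to 0.43). RB1CC1 (FIP200), the large scaffold of the complex, ranged from 610.8 to 845.4 in Control and from 599.6 to 986.2 in DCC-2036. Its values overlapped, and the interval of its log2 fold change, -0.57 to 0.52, was among the wider ones. The calls of ULK1 and ATG101 were lost without any 1 of the Control libraries and without DCC-2036 replicate 2, with adjusted p-values up to 0.0318 for ULK1 and 0.0149 for ATG101. With all libraries, ULK1 also lost its call without the filter on low values (adjusted p = 0.0181), with a replicate block (0.0211) and with sums over transcripts (0.0104), while ATG101 kept its call in all 10 such settings.

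Of the 6 genes of the lipid kinase complex, ATG14 was called higher and 0 lower, against 19.2% and 22.7% of all tested genes. ATG14, the subunit that brings the lipid kinase to the site where autophagosomes form, measured 590.5, 590.9 and 605.6 in Control against 1068, 1407 and 1848 in DCC-2036. The 3 Control values lay close together, the DCC-2036 values were spread above them, and the log2 fold change was 1.24 (SE 0.20, adjusted p = 0.00265), the highest of the 35 genes. The call was lost without any 1 Control library and without DCC-2036 replicate 2, where the adjusted p-value reached at most 0.0128 and the log2 fold change was at least 1.23. BECN1, the regulatory subunit shared by the forms of the complex, was at 1291, 1359 and 1348 in Control and at 1497, 1506 and 1503 in DCC-2036. The groups did not overlap, but the difference was not called (log2 fold change 0.17, 95% interval -0.04 to 0.39). PIK3C3, the catalytic subunit, ranged from 329.9 to 376.0 in Control and from 362.0 to 413.7 in DCC-2036, with overlap (interval -0.12 to 0.40). PIK3R4, the subunit that anchors it, ranged from 959.0 to 1014 in Control and from 608.2 to 881.3 in DCC-2036, with an interval of -0.79 to -0.06. It did not pass the limit with all libraries (adjusted p = 0.0471) and did so without DCC-2036 replicate 1 (adjusted p = 0.00877). UVRAG, which takes the place of ATG14 in the endosomal form of the complex, had an interval of 0.02 to 0.60, and AMBRA1, a BECN1-binding regulator, 0.11 to 0.68. AMBRA1 passed the limit without DCC-2036 replicate 3 (adjusted p = 0.00655).

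Among the 5 genes for membrane supply and for reading the lipid mark, ATG9A and ATG2A were called lower and 0 higher, where 22.7% and 19.2% of all tested genes were. ATG9A, the lipid scramblase on the vesicles that seed the membrane, had Control values of 1803, 1869 and 1963 and DCC-2036 values of 1131, 947.0 and 828.5. All DCC-2036 values were below all Control values, and the log2 fold change was -0.97 (SE 0.14, adjusted p = 0.00171). The call was lost without Control replicate 3 (adjusted p = 0.0102). ATG2A, which carries lipid from the endoplasmic reticulum, was at 644.1, 610.9 and 691.3 in Control and at 411.3, 276.1 and 181.8 in DCC-2036. The groups did not overlap, the DCC-2036 libraries differed widely, and the log2 fold change of -1.24 passed the limit narrowly (SE 0.28, adjusted p = 0.00972). It was not called in 8 of the 16 other settings, among them each of the 3 that leave out a Control library and the one without DCC-2036 replicate 2 (adjusted p up to 0.0358). ATG2B, its paralog, ranged from 192.3 to 208.2 in Control and from 181.9 to 206.3 in DCC-2036. The groups overlapped, and the interval of its log2 fold change was -0.28 to 0.21. WIPI2, which binds the lipid mark and recruits ATG16L1, measured 1282, 1327 and 1314 in Control against 1171, 1196 and 983.2 in DCC-2036. All 3 DCC-2036 values were the lower ones, without a call (log2 fold change -0.23, 95% interval -0.50 to 0.04). WIPI1, of the same family, ranged from 152.7 to 175.8 in Control and from 93.3 to 163.6 in DCC-2036, with overlap and an interval of -0.98 to 0.06. Without DCC-2036 replicate 1, its adjusted p-value was 0.00385.

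The genes of the linked ATG12 and ATG8 conjugation systems encode proteins that serve to attach ATG8 proteins to lipid. They gave 2 calls higher and 2 lower of 6, against 19.2% and 22.7% of all tested genes. In the figures this group is marked ATG12 conjugation, though ATG3 is of the ATG8 system. ATG16L1, the subunit that places the conjugating enzyme on the membrane, had Control values of 873.4, 914.9 and 916.7 and DCC-2036 values of 1754, 1964 and 2088. Every DCC-2036 value was well above every Control value, and the log2 fold change was 1.10 (SE 0.11, adjusted p = 0.000529). ATG3, the enzyme that passes ATG8 proteins to the lipid, was at 777.6, 832.5 and 754.6 in Control and at 1227, 1569 and 1589 in DCC-2036. Each DCC-2036 value exceeded each Control value, and ATG3 rose by 0.88 on the log2 scale (SE 0.13, adjusted p = 0.00214). The call was lost without Control replicate 1, without Control replicate 3 and without DCC-2036 replicate 2 (adjusted p up to 0.012). ATG12, the ubiquitin-like protein of the ATG12 system, measured 1343, 1454 and 1311 in Control against 709.4, 771.7 and 847.5 in DCC-2036. All DCC-2036 libraries were below all Control libraries, and the log2 fold change was -0.82 (SE 0.11, adjusted p = 0.00144). ATG10, the enzyme that joins ATG12 to ATG5, was at 120.5, 109.9 and 81.6 in Control and at 50.8, 46.6 and 53.8 in DCC-2036. Here the Control libraries were the more spread, the groups did not overlap, and the log2 fold change was -1.01 (SE 0.17, adjusted p = 0.00272). The call was lost without Control replicate 1, without Control replicate 2 and without DCC-2036 replicate 2 (adjusted p up to 0.0139), and also with a replicate block (adjusted p = 0.0122). ATG5, the partner of ATG12, ranged from 728.9 to 762.2 in Control and from 893.0 to 1079 in DCC-2036. It was higher in 3 of 3 DCC-2036 libraries, and its log2 fold change of 0.44 (95% interval 0.16 to 0.71) missed the limit (adjusted p = 0.0154). It passed with a variance trend in the fit (adjusted p = 0.00746) and without DCC-2036 replicate 1 (adjusted p = 0.00447). ATG7, the activating enzyme for both ubiquitin-like proteins, had an interval of 0.04 to 0.64, with higher values in 3 of 3 DCC-2036 libraries and no call. So within the conjugate of ATG12, ATG5 and ATG16L1, ATG12 fell, ATG16L1 rose and ATG5 was not called.

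The ATG4 proteases trim new ATG8 proteins and later free them from the membrane. ATG4A had Control values of 211.5, 224.0 and 202.4 and DCC-2036 values of 309.0, 298.7 and 304.9. The 3 DCC-2036 values lay close together above the Control values, with a log2 fold change of 0.52 (SE 0.09, adjusted p = 0.00416). ATG4C was at 223.6, 262.6 and 286.4 in Control and at 164.9, 163.5 and 180.4 in DCC-2036, lower without overlap. Its log2 fold change was -0.59 (SE 0.13, adjusted p = 0.00706). ATG4B, regarded as the main protease of the family, measured 1358, 1325 and 1454 in Control against 1140, 864.7 and 557.2 in DCC-2036. The DCC-2036 values were all lower but far from each other, and the log2 fold change of -0.75 was not called (95% interval -1.36 to -0.14, adjusted p = 0.0398). ATG4D ranged from 737.0 to 895.6 in Control and from 363.4 to 602.3 in DCC-2036, with an interval of -1.27 to -0.26 and no call (adjusted p = 0.019). Thus 1 of the 4 proteases was called higher and 1 lower, against 19.2% and 22.7% of all tested genes. ATG4B and ATG4D were lower without overlap and without a call, where 38.1% of all tested genes were lower without overlap. ATG4A lost its call without any 1 Control library and without DCC-2036 replicate 2 (adjusted p up to 0.0227), and also without the filter on low values (adjusted p = 0.0104), with a replicate block (0.0195) and with scaling to equal totals (log2 fold change 0.3182, adjusted p = 0.0332). ATG4C lost its call without Control replicate 2, Control replicate 3, DCC-2036 replicate 1 or DCC-2036 replicate 2 (adjusted p up to 0.0317), and also without the filter (0.0161), with scaling by the median of ratios (0.0154) and with a replicate block (0.0161). Without DCC-2036 replicate 1, ATG4B and ATG4D passed the limit (adjusted p = 0.0064 and 0.00966), and ATG4D did so with a variance trend too (adjusted p = 0.00732).

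Of the ATG8 genes, MAP1LC3B and GABARAPL2 rose and GABARAPL1 fell, against 19.2% called higher and 22.7% lower over all tested genes. MAP1LC3B, whose product LC3B is the common marker of autophagosomes, had Control values of 1612, 1683 and 1630 and DCC-2036 values of 2635, 3326 and 3991. The Control libraries were close together, each DCC-2036 library was above them, and the log2 fold change was 0.99 (SE 0.16, adjusted p = 0.00276). GABARAPL2 was at 650.6, 686.7 and 654.3 in Control and at 980.0, 1055 and 1147 in DCC-2036. The groups did not overlap, and the log2 fold change was 0.67 (SE 0.10, adjusted p = 0.00225). GABARAPL1 measured 301.8, 299.4 and 309.3 in Control against 174.2, 178.5 and 159.7 in DCC-2036. Both groups were tight, all DCC-2036 values were the lower ones, and GABARAPL1 fell by 0.83 on the log2 scale (SE 0.10, adjusted p = 0.000888). GABARAP, the founding gene of that family, ranged from 1425 to 1607 in Control and from 1433 to 1765 in DCC-2036, with overlap and an interval of -0.20 to 0.37. MAP1LC3A, another LC3 gene, was at 1.89, 0.00 and 2.81 in Control and at 4.14, 2.22 and 4.63 in DCC-2036 and was the gene left out of the test. The calls of MAP1LC3B and GABARAPL2 were lost without any 1 Control library and without DCC-2036 replicate 2, with adjusted p-values up to 0.0136 and 0.013. With a replicate block, GABARAPL2 lost its call as well (adjusted p = 0.0116).

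Among the 5 cargo receptors, SQSTM1 and NBR1 fell and 0 were called higher, against 22.7% lower and 19.2% higher over all tested genes. SQSTM1 (p62), the receptor for ubiquitin-tagged cargo that is itself consumed by autophagy, had Control values of 6091, 6455 and 6833 and DCC-2036 values of 3925, 3853 and 3968. The DCC-2036 libraries were close together below the Control libraries, and the log2 fold change was -0.72 (SE 0.10, adjusted p = 0.00137). NBR1, a receptor of similar build that works beside SQSTM1, was at 1332, 1340 and 1303 in Control and at 565.1, 561.5 and 427.5 in DCC-2036. The groups were far apart, and the log2 fold change of -1.36 (SE 0.14, adjusted p = 0.00058) was the lowest of the 35 genes. TAX1BP1, a receptor for protein aggregates and bacteria, measured 1821, 2055 and 1736 in Control against 2466, 2895 and 3808 in DCC-2036. All DCC-2036 values were the higher ones, with replicate 3 well above the others, and the log2 fold change of 0.69 was not called (95% interval 0.26 to 1.12, adjusted p = 0.0154). It passed the limit with a variance trend (adjusted p = 0.00445) and without DCC-2036 replicate 1 (adjusted p = 0.00516). OPTN, a receptor for damaged mitochondria, ranged from 280.1 to 335.1 in Control and from 402.4 to 449.0 in DCC-2036, without overlap and without a call (interval 0.17 to 0.72). CALCOCO2 (NDP52), which acts on bacteria and mitochondria, ranged from 1179 to 1227 in Control and from 894.4 to 1334 in DCC-2036. Its groups overlapped, with an interval of -0.49 to 0.29.

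**Figure D2:**
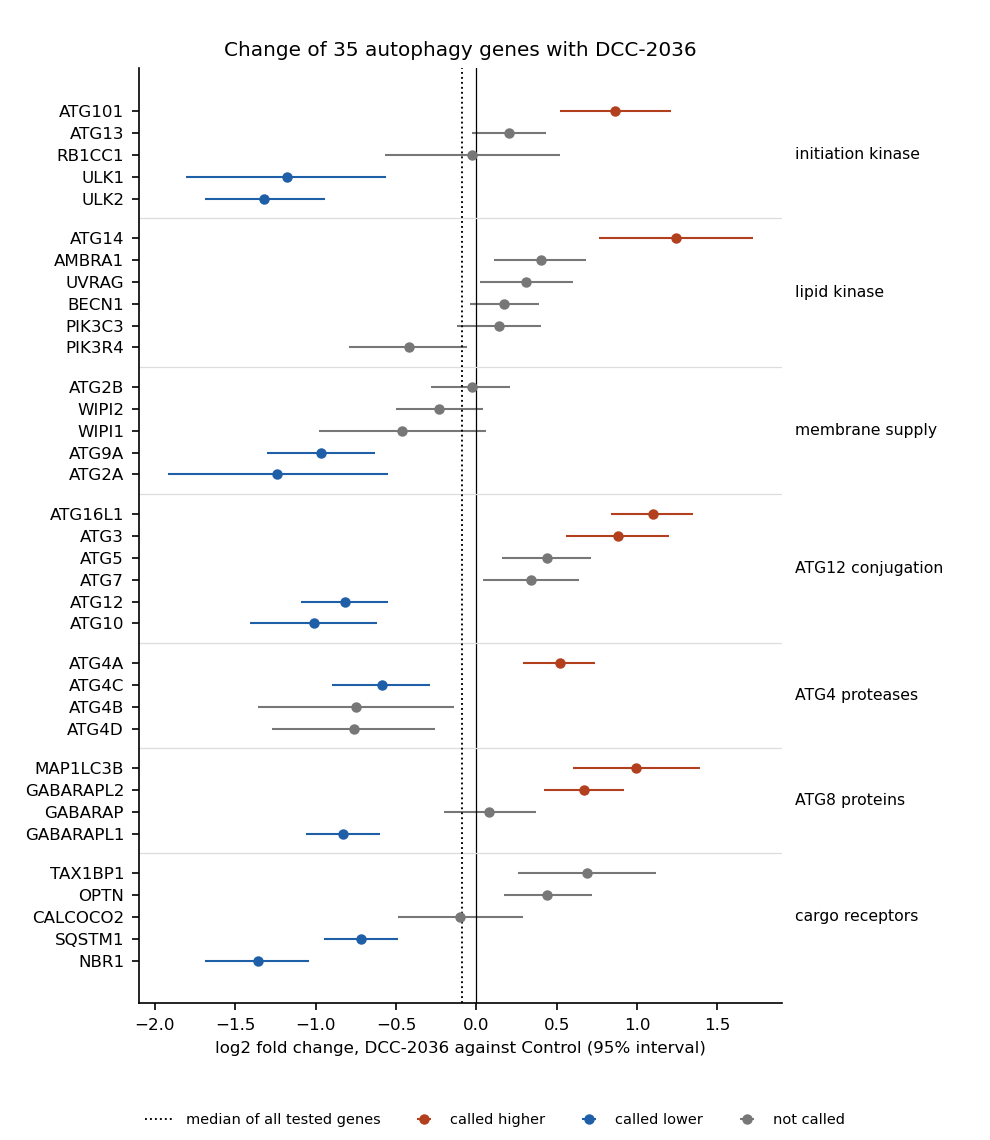
Log2 fold change of the 35 tested autophagy genes (points, x axis) with 95% intervals (bars), genes on the y axis grouped by role, 3 libraries per group. Red genes were called higher (7), blue genes lower (10) and grey genes were not called. Over all tested genes, 19.2% were called higher and 22.7% lower. The dotted line is the median of all tested genes, -0.09.

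The levels of different genes were compared per kilobase of transcript, with lengths from GENCODE 29 for 35 of the 36 genes (ATG13 had none). A length is that of the longest GENCODE transcript matched to the RefSeq accession, so it may differ from that of the deposited transcript. The division also takes the values as not yet adjusted for length, which the sources used here do not state. On the scale per kilobase and by group means, SQSTM1 had the highest level in Control, 2163 per kilobase. ATG101 had the highest mean in DCC-2036, 1406 per kilobase, followed there by SQSTM1 at 1311. This order did not hold in every library, since SQSTM1 lay above ATG101 in DCC-2036 replicate 1. ULK1 stood at 122 per kilobase in Control and 56.1 in DCC-2036, and ULK2 at 8.19 and 3.22, so that ULK1 was the more abundant kinase in both groups. The lowest tested level in either group was that of ULK2. MAP1LC3B went from 611 per kilobase to 1234, and ATG16L1 from 265 to 568.

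Within the ATG8 family, the largest mean share of the level per kilobase was that of GABARAP in Control and of MAP1LC3B in DCC-2036. GABARAP held 39.5% ± 1.33 (SD, n = 3) of the family's summed level in Control and 29.4% ± 0.852 in DCC-2036. MAP1LC3B held 25.9% ± 0.57 in Control and 36.3% ± 2.82 in DCC-2036. Its 3 shares in DCC-2036, 33.5%, 36.4% and 39.1%, were all above its highest Control share of 26.3%. GABARAPL2 held 28% ± 0.759 and 31.5% ± 1.69, and GABARAPL1 6.57% ± 0.21 and 2.62% ± 0.447. In DCC-2036 replicate 1, MAP1LC3B at 33.5% and GABARAPL2 at 33.4% were nearly level. GABARAPL2 lay above GABARAP in each DCC-2036 library, at 33.4%, 31% and 30.1% against 29.9%, 29.9% and 28.5%. The summed level of the family was 2363 ± 74.3 per kilobase in Control and 3375 ± 434 in DCC-2036. Since shares add up, the lower share of GABARAP went with a value of its own that was not called.

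Among the cargo receptors, SQSTM1 held 55.3% ± 1.88 (SD, n = 3) of the summed level per kilobase in Control and 40.6% ± 1.17 in DCC-2036. TAX1BP1 held 16.6% ± 1.37 and 32.6% ± 6.08, and its lowest DCC-2036 share, 27.1%, was above its highest Control share, 17.8%. NBR1 held 9.85% ± 0.414 and 4.67% ± 0.856. The summed level of the 5 receptors was 3908 ± 136 per kilobase in Control and 3230 ± 118 in DCC-2036. Among the ATG4 proteases, ATG4B held 40.7% ± 2.25 in Control and 36% ± 5.08 in DCC-2036, with overlap, and ATG4A 8.95% ± 0.794 and 19.2% ± 4.29, without overlap. The summed level of the proteases was 1029 ± 65.3 and 707 ± 149 per kilobase.

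**Figure D3:**
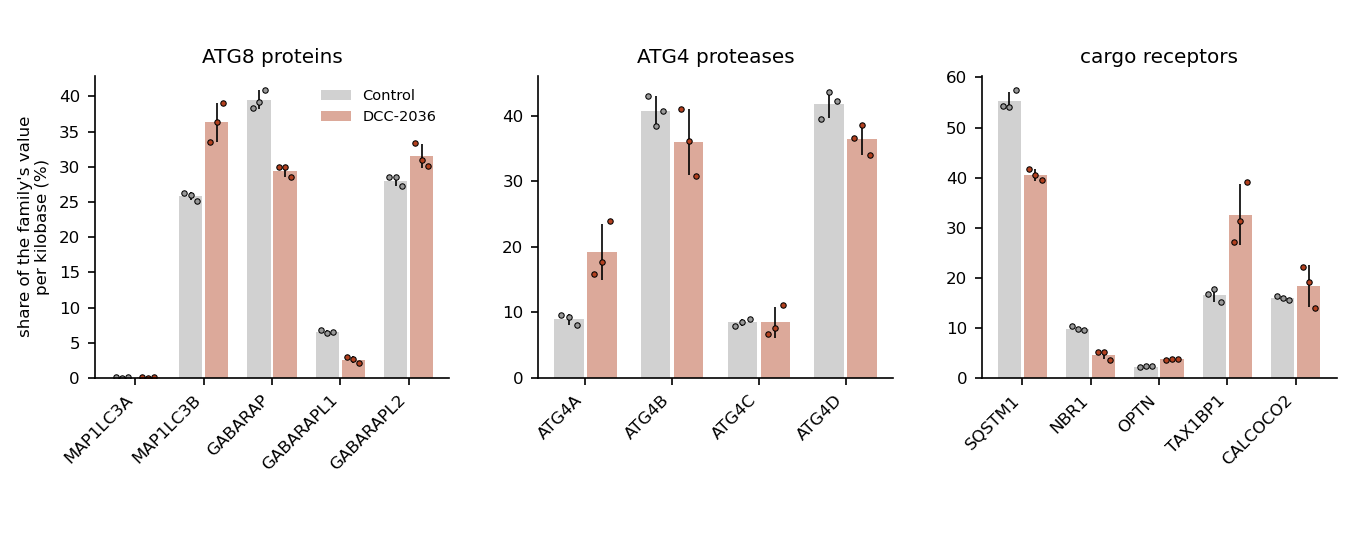
Share of each gene in the summed value per kilobase of its family (y axis, percent) for the ATG8 genes, the ATG4 proteases and the cargo receptors. Bars are means of 3 libraries, error bars SD and points single libraries, with Control in grey and DCC-2036 in red. By mean share, MAP1LC3B passes GABARAP in DCC-2036, at 36.3% against 29.4%, and GABARAPL2 does too, at 31.5%.

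The table lists 141 transcripts of the 36 genes. When all transcripts were tested as separate rows, 139 of these passed the filter, and 19 were called higher and 19 lower. Over all transcripts, 19.7% were called higher and 22.4% lower. In each of the 25 genes with several tested transcripts, all transcripts had the same sign, and the log2 fold changes of 1 gene differed by at most 0.23 (ULK2). ATG13 alone had 51 transcripts listed, with log2 fold changes from 0.18 to 0.21. Transcripts of 1 gene may share reads, so their likeness is no independent evidence.

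Overlapping and similar genes limit some of these values. In GENCODE 29 (GRCh38), 14 of the 36 genes share exon bases with another expressed protein-coding gene, in each case on the opposite strand. The library kit named in the labels does not mark the strand, and how reads were counted is not given in the sources used here, so reads of such a pair cannot be told apart. ATG10, with a Control mean of 104, shares 374 bases with the ribosomal protein gene RPS23, whose Control mean was 10669, and this makes the level of ATG10 uncertain. SQSTM1 shares 1582 bases with MRNIP, which was called lower and had Control and DCC-2036 means of 301 and 114, small beside those of SQSTM1. ATG12 shares 378 bases with AP3S1 and MAP1LC3B 150 with FBXO31, and neither partner was called. ATG7 shares 1596 bases with VGLL4, which was called higher (log2 fold change 1.05) as ATG7 had higher values, and ATG4B 237 with THAP4, called higher while ATG4B had lower values. BECN1 shares 300 bases with PSME3, which was called lower, with means of 4972 in Control and 2069 in DCC-2036. ATG4D shares 341 bases with KRI1, which was called lower with a log2 fold change of -1.85. Of the remaining partners, GSKIP (419 bases, with ATG2B) and HARBI1 (329 bases, with ATG13) were called lower, with log2 fold changes of -0.74 and -1.29, and CNTD1 (795 bases, with BECN1), SLC35A5, ARSG, MGAT4B, CCDC3 and JAZF1 were not called. Pseudogenes named after 6 of the genes (ATG3, ATG4A, ATG12, BECN1, MAP1LC3B and SQSTM1) could also take or lend reads. Of close copies, MAP1LC3B2 had values of at most 14.9 and MAP1LC3C of at most 9.24 in any library, and both were left out of the test. ATG9B ranged from 7.46 to 13.0 in Control and from 10.5 to 37.8 in DCC-2036, with an interval of -0.04 to 2.09, and ATG16L2 had an interval of -1.36 to 1.81. GABARAPL3 was not analysed here.

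Genes that work beside the core machinery were taken from lists that hold none of the 36, and the calls of each list stand beside 19.2% higher and 22.7% lower over all tested genes. Of 18 tested further core and elongation genes, 5 were called higher (27.8%) and 1 lower (5.56%), with a median log2 fold change of 0.22. SH3GLB1, a membrane-bending partner of the BECN1 complex, rose by 1.27 on the log2 scale (SE 0.10, adjusted p = 0.000338), and WDR45B, a relative of the WIPI proteins, by 1.23 (SE 0.15, adjusted p = 0.00093). TECPR1, which binds the ATG12 and ATG5 conjugate, fell by 1.22 (SE 0.19, adjusted p = 0.00214). Of 22 tested further receptors and adaptors, 4 were called higher (18.2%) and 6 lower (27.3%), near the shares of all genes, with a median of 0.05. NUFIP1, described as a receptor for ribosomes, rose by 1.32 (SE 0.19, adjusted p = 0.00167), and NCOA4, the receptor for ferritin, by 1.31 (SE 0.13, adjusted p = 0.000591). CALCOCO1, a paralog of CALCOCO2, fell by 1.81 (SE 0.30, adjusted p = 0.00283), and FAM134A (RETREG2), of a family of receptors for the endoplasmic reticulum, by 1.76 (SE 0.14, adjusted p = 0.000326). TBK1, the kinase that phosphorylates OPTN and other receptors, was higher in 3 of 3 DCC-2036 libraries without a call (interval 0.16 to 0.80, adjusted p = 0.0196).

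Among the kinases and regulators upstream of ULK1, 9 of 36 tested genes were called higher (25%, against 19.2% of all) and 4 lower (11.1%, against 22.7%), with a median of -0.04. PRKAB2, a subunit of the energy-sensing kinase AMPK, had Control values of 395.9, 374.9 and 353.3 and DCC-2036 values of 935.6, 1195 and 1642. The groups did not overlap, and the log2 fold change was 1.71 (SE 0.21, adjusted p = 0.00101). SESN2, a stress-induced sensor of leucine that restrains mTORC1, was at 382.6, 404.8 and 396.7 in Control and at 1201, 1308 and 1326 in DCC-2036. Each group was tight, and the log2 fold change was 1.69 (SE 0.10, adjusted p = 0.000193). DEPTOR, an inhibitory partner of mTOR, fell from values of 19.8, 18.4 and 19.3 to 3.14, 3.30 and 7.96, which are low values with a log2 fold change of -1.89 (SE 0.30, adjusted p = 0.00245). It reached the filter by its Control values alone, so this call rests on a gene near the limit of the test. DEPTOR is counted among the 4 genes called lower, and no conclusion is drawn from its call. MLST8, a subunit of both mTOR complexes, fell by 1.01 (SE 0.17, adjusted p = 0.00291). MTOR itself ranged from 3000 to 3323 in Control and from 2046 to 3026 in DCC-2036, with overlap and an interval of -0.70 to 0.12.

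The transcription factors of the MiT/TFE family switch on lysosome and autophagy genes, and ZKSCAN3 is described as their opponent. Of the 4 tested genes of this list, 2 were called lower and 0 higher, against 22.7% and 19.2% of all genes, with a median of -1.07; the list is too small for its share to be weighed. ZKSCAN3 measured 194.5, 236.5 and 203.3 in Control against 98.2, 63.9 and 32.7 in DCC-2036. All DCC-2036 values were the lower ones, and the log2 fold change was -1.82 (SE 0.37, adjusted p = 0.00641). MITF fell from low values of 18.8, 13.0 and 21.3 to 8.29, 6.54 and 8.19 (log2 fold change -1.09, SE 0.20, adjusted p = 0.00407). It too reached the filter by its Control values alone and would not be tested if a value of 10 were asked of all 6 libraries. MITF is counted among the 2 lower calls and in the median of -1.07, so neither is read as a result about the list. TFEB was at 92.0, 112.4 and 124.4 in Control and at 96.1, 57.4 and 24.6 in DCC-2036, with overlap and a wide interval of -2.17 to 0.05. TFE3 ranged from 363.3 to 425.1 in Control and from 437.7 to 517.2 in DCC-2036, without overlap and without a call (interval 0.02 to 0.58). TFEC was listed at 0 in all 6 libraries.

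Of the 24 tested genes for the fusion of autophagosomes with lysosomes, 6 were called higher (25%, against 19.2% of all) and 3 lower (12.5%, against 22.7%), with a median of 0.24. LAMP1, a main protein of the lysosomal membrane, rose by 0.95 (SE 0.12, adjusted p = 0.00102). SNAP29, a SNARE of the fusion step, fell by 1.14 (SE 0.15, adjusted p = 0.00122), and VPS18, a subunit of the tethering complex, by 0.99 (SE 0.12, adjusted p = 0.000999).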

How the data were processed

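RNA of 6 libraries was analysed, 3 of Control and 3 of DCC-2036, with groups taken from the sample titles. The authors deposited 1 normalized signal value per RefSeq transcript and library. These are not whole numbers, and reads were not recovered from them, so depth per library is unknown and no counting error can be given. How the values were adjusted for depth is not given in the sources used here. The column sums still ran from 38997229 to 48023306, and the main fit added no scaling. In the DCC-2036 libraries 5697 transcripts were listed at 0 in each, against 7844, 7940 and 8078 in Control, so very low values may have been treated differently in the groups, which was not tested. The aligner, genome build and counting rules are not given in the sources used here. Columns of the authors' own comparison (fold change on the log2 scale, p-value, q-value) were not used, and the table has 0 columns of other samples.

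For each symbol, the transcript with the highest mean was tested with limma 3.58.1 (R 4.3.3; two-sided, without covariates, Benjamini-Hochberg adjustment over 12725 genes) on log2(value + 1), after a filter of at least 10 in at least 3 libraries. For genes with low values, the added 1 makes a fold change look smaller than it is. Levels per kilobase, overlaps and pseudogenes used GENCODE 29, and older gene names and promoters came from RefSeq tables. Python 3.11.15 with numpy 2.4.6, pandas 2.3.3, scipy 1.17.1 and matplotlib 3.10.9 was used for the rest.

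The 36 genes, the further lists, the markers and the tests were chosen with earlier results of these data known. All 36 genes were accounted for. Those with an adjusted p-value under 0.01, a log2 fold change of 1 or more in size, or groups without overlap and a mean of at least 1000 were given in every library. Of each further list, up to 2 called genes at either end were named, besides MTOR, TFEB, TFE3, MITF, TBK1 and close copies of the genes. The partners of overlapping genes were named after their values were seen. Apart from these, 2 genes looked at are not reported here. Motifs were first counted with 1 promoter per gene and then with all listed promoters, a change made after the first counts were seen. The shares over all genes called higher or lower were added after the matches were known. Alternatives were other filters, a pseudocount of 0.1, 3 scalings, a replicate block, a variance trend, sums over transcripts, all transcripts as rows, each library left out, a looser adjusted p-value (0.05) and a required log2 fold change of 1 or more in size.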

Additional observations from a re-analysis of the deposited data

How the results depend on the processing

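All 17 called autophagy genes kept their sign in the 16 other settings, 11 were called in all 10 settings with every library, and 6 in all 16. The cause of the changes below was not tested, except that fewer libraries were fitted where 1 was left out. With all genes, 2442 were higher and 2887 lower. An adjusted p-value limit of 0.05 called 11 autophagy genes higher and 13 lower, and 3630 of all 12725 genes higher and 4290 lower. Asking also for a log2 fold change of 1 or more in size kept 2 autophagy genes higher and 5 lower, and 944 of all genes higher and 1930 lower. With all transcripts as rows, 6379 were higher and 7250 lower. Leaving out 1 library gave from 928 to 2675 genes higher and from 1514 to 3507 lower, and from 1 to 9 autophagy genes higher and from 6 to 13 lower, with their median between -0.070 and 0.129. Without DCC-2036 replicate 2, 928 genes were higher and 1708 lower. Without Control replicate 1, 2 or 3, 1054, 1000 and 992 were higher and 1593, 1514 and 1525 lower.

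Scaling to equal totals moved the median of all genes from -0.092 to -0.289 and that of the autophagy genes from -0.027 to -0.225, and among called genes the percentage that was higher from 45.8% to 32.7%. Scaling by the median of ratios went the other way, with medians of -0.009 and 0.055 and 50.7% of called genes higher (2710 higher, 2634 lower), and called 7 autophagy genes higher and 9 lower. Of the 18 genes not called, 7 changed sign somewhere. With equal totals these were ATG13 (-0.0017), BECN1 (-0.0251), GABARAP (-0.1147) and PIK3C3 (-0.0561). With median of ratios they were ATG2B (0.0464) and RB1CC1 (0.0547). Without 1 library, ATG2B lay between -0.0701 and 0.0230, CALCOCO2 between -0.2280 and 0.0604 and RB1CC1 between -0.2296 and 0.1289.

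The replicate numbers gave no sign of a pairing of the samples. After subtraction of the group means, libraries with the same number had correlations of 0.081, -0.035 and -0.003 across genes. Those of libraries with different numbers ran from -0.060 to 0.091. With 3 libraries per group, these values cannot show that the samples were unpaired. With the replicate block as a term, limma called 1202 genes higher and 1909 lower, and 5 autophagy genes higher and 6 lower.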
